A study of Mus musculus with 6 samples.

Results

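Dppa2 peaks on mouse chromosome 11 are the 348 of 3336 intervals in the deposited V5-Dppa2 peak list that lie on this chromosome, which is 10.4% of the list (95% interval 9.41% to 11.5%). The members were chosen by the position of peaks that had themselves been selected on the measured enrichment, so their number, score and width are given as a description and with no test. The ChIP was made with anti-V5 beads from CGR8 mouse ESCs, a feeder-free embryonic stem cell line kept in serum and leukaemia inhibitory factor, that carried a pPyCAG vector, whose CAG promoter drove Dppa2 tagged N-terminally with V5. The cells were puromycin-selected stable clones, the labels name no change to the endogenous gene, and the parental CGR8 line without a V5 tag, put through the same anti-V5 ChIP, was the control of the peak calling. There was 1 library of each kind, so no value below has a replicate error, the read depth behind the peaks is unknown, and the intervals cover counting error only. The series also holds 4 histone ChIP libraries (H3K4me1, H3K4me3, H3K27ac and H3K9me3), which were not analysed here.

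Dppa2 is a small nuclear protein with a SAP domain, a DNA-binding fold, and it works together with its relative Dppa4. It is made in the early embryo, in ESCs and in the developing germ line, and in ESCs it is known for sitting at gene promoters. Most mammalian promoters of broadly used and developmental genes are CpG islands, stretches rich in the dinucleotide CG, whereas many tissue-specific genes, among them those for hair keratins, olfactory receptors and globins, have promoters poor in CG and often a TATA box. Chromosome 11 carries large arrays of such tissue-specific genes next to dense blocks of CpG-island genes.

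The sequence under the peaks differed widely, and 15 stretches of 120 bases from the mm9 genome are shown, each inside a peak, on the strand of the gene and with every CG in capitals. The highest-scoring peak of the chromosome, which was also the highest of the whole list, lay at Gm10462, a predicted protein-coding gene, and its sequence upstream of the transcription start site (TSS) was a tandem repeat. A shift of 51 bases matched 76.8% of the bases of that peak to themselves, against a median of 31.1% at the best shift over the 348 peaks.
Gm10462 chr11:32625718-32625837 (+ strand): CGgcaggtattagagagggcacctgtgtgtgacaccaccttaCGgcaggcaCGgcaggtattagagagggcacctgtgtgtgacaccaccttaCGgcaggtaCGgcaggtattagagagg
Peaks in the type I keratin and keratin-associated protein locus lay on coding sequence with few CG, and the next sequences are from the centres of 6 of them. Krtap4-16, Gm11554, Gm11569 and Krtap4-13 belong to the high-scoring peaks on short cysteine-rich genes, and Krt33a and Krt33b encode hair keratins. The runs tgctgc and cagctg recur in each of the first 4 sequences.
Krtap4-16 chr11:99712484-99712603 (- strand): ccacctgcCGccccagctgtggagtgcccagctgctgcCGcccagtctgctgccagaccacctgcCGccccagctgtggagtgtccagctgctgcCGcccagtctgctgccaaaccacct
Gm11554 chr11:99665398-99665517 (- strand): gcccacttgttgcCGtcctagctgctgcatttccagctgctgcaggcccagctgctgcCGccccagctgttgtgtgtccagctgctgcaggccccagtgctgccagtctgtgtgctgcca
Gm11569 chr11:99659888-99660007 (- strand): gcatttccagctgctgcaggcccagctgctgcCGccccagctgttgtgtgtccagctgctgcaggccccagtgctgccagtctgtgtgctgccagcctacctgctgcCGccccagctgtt
Krtap4-13 chr11:99670882-99671001 (- strand): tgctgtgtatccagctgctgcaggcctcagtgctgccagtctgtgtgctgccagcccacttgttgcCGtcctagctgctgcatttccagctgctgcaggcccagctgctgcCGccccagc
Krt33a chr11:99877334-99877453 (- strand): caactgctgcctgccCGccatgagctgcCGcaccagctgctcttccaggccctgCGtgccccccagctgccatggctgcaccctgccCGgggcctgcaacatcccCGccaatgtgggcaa
Krt33b chr11:99890968-99891087 (- strand): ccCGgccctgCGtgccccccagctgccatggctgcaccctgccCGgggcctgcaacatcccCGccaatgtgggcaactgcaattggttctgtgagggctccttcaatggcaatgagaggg
The coding centre of the peak on the olfactory receptor gene Olfr1395 held 2 CG. The stretches before the TSS of Hbq1b and Hbq1a, the 2 theta-globin genes, are shown because they are copies of each other.
Olfr1395 chr11:48962281-48962400 (+ strand): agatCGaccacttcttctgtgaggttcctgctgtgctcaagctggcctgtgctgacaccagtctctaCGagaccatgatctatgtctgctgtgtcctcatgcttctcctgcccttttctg
Hbq1b chr11:32186841-32186960 (+ strand): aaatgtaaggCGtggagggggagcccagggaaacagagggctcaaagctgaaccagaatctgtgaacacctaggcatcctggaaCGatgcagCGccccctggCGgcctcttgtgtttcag
Hbq1a chr11:32199949-32200068 (+ strand): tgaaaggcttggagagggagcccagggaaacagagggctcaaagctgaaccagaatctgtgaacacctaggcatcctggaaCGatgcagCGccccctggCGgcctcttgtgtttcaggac
The remaining sequences show peaks where CG was more frequent, although the promoter of Spata22, over 1000 bp, had a CpG observed/expected ratio of 0.479. They come from upstream of Wnt9a, which encodes a secreted signalling protein, Ubtd2, Adora2b, which encodes an adenosine receptor, and Spata22, a gene of meiotic recombination, and from a coding exon of Hsf5, a heat shock factor gene expressed in testis.
Wnt9a chr11:59120302-59120421 (+ strand): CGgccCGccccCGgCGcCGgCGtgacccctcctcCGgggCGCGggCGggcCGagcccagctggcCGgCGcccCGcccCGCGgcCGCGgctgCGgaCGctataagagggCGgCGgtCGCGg
Ubtd2 chr11:32355250-32355369 (+ strand): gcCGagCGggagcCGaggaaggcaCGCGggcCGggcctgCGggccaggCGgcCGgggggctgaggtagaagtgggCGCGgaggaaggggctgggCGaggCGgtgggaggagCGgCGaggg
Adora2b chr11:62062366-62062485 (+ strand): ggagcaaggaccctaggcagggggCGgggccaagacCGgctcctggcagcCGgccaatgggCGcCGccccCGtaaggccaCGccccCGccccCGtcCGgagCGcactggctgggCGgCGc
Spata22 chr11:73143123-73143242 (+ strand): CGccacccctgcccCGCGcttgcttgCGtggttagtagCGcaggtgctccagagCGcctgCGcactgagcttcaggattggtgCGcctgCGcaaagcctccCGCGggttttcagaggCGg
Hsf5 chr11:87430964-87431083 (+ strand): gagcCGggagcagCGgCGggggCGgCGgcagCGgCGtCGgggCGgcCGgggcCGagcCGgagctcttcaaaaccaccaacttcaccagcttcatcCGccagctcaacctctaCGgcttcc
The Wnt9a stretch held 24 CG and 86.7% G or C, against 2 CG in each of the Gm11554, Gm11569 and Krtap4-13 stretches.

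Chromosome 11 had more peaks than any other chromosome. Chromosomes 2, 8 and 4 followed with 272, 251 and 243. It holds 1653, or 7.39%, of the 22367 protein-coding genes annotated on the 21 chromosomes with a peak. A gene was called Dppa2-bound when a peak midpoint lay within 1 kb of the TSS of any of its transcripts. By this definition 313 protein-coding genes of chromosome 11 were bound and 1340 were not, a bound share of 18.9% (95% interval 17.1% to 20.9%). Over all chromosomes of the list 14.2% of protein-coding genes were bound, and 13.8% (13.3% to 14.3%) were bound on the chromosomes other than 11. Only chromosome 8 with 23.7% and chromosome 12 with 21.2% had higher shares. With peaks of a score of at least 200 only, 165 genes or 9.98% (8.58% to 11.5%) were bound on chromosome 11, beside 8.06% over all chromosomes and 7.90% (7.54% to 8.28%) outside chromosome 11, with intervals that did not overlap.

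**Figure D1:**
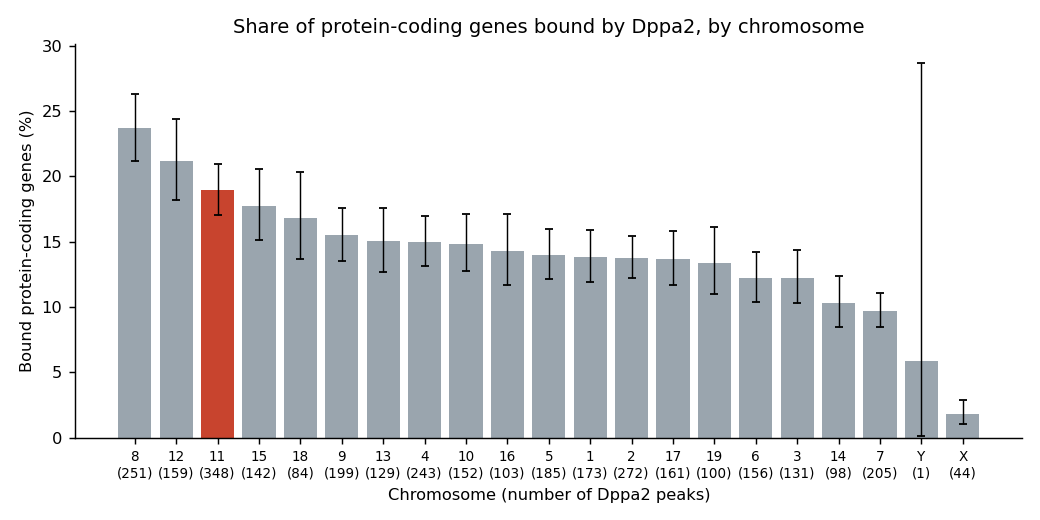
Bars give the share of protein-coding genes with a Dppa2 peak midpoint within 1 kb of a TSS (y axis, percent) on each chromosome (x axis, number of peaks in brackets), and whiskers are 95% Clopper-Pearson intervals, which cover counting error only. Chromosome 11, in red, had 18.9%, below chromosomes 8 and 12, and had the most peaks, 348.

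The score, which is the −log10 of the p-value from MACS multiplied by 10, had a median of 220 (95% interval 202 to 244) on chromosome 11 and 228 (223 to 237) elsewhere. Its quartiles were 150 and 356. The top of the range was denser on chromosome 11: 17 of its peaks and 52 of the 2988 others had a score over 900, and 21 of the 100 highest-scoring peaks of the list were on it. The median width was 1502.5 bp (1418 to 1554), beside 1429 bp (1408 to 1444) on the other chromosomes.

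Among the 12 peaks with the highest scores, the nearest TSS belonged to a gene annotated as protein-coding in 7 and to a pseudogene or non-coding RNA gene in the others. The peak at Gm10462 had a score of 3100, and the highest on any other chromosome had 2290. Gm11611, a processed transcript, followed with 1548, and Nags, which encodes the enzyme that makes the activator of the urea cycle, with 1322. Krtap4-16 had 1311, the lincRNA A230004M16Rik 1226, and the pseudogene Gm12623 1196. Next came Cdc34-ps with 1132, the pseudogene Gm12282 with 1113 and Gm11554 with 1105. Lower among them were 7SK, annotated for the small nuclear RNA that holds the elongation factor P-TEFb inactive, with 991, and Gm11569 with 981. Of these 12 peaks, those at Gm10462, A230004M16Rik, Gm12623, Gm11554 and Gm11569 lay in repeated sequence, since 68.7%, 90.03%, 72.5%, 93.1% and 94.3% of their 36-mers occurred more than once in mm9. Reads that aligned at several places had been kept at their best match, so reads from copies can add to such peaks, and their part in these scores was not tested. The peak at Nags had no repeated 36-mer, and that at Gm11611 had 0.431%.

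The weakest peaks that passed the authors' limits were at Smarce1, which encodes a subunit of the BAF remodelling complex, with a score of 100, at C1ql1, a secreted protein of the C1q family, with 100.25 and at Tubg1, the gamma-tubulin gene, with 101. Peaks just below the limit are not in the list. The widest were at Pnmt, the last enzyme of adrenaline synthesis (5468 bp, score 639), at Tlx3, a homeobox gene of developing neurons (5031 bp, score 427), and at Gm11611 (4673 bp). Relative to the nearest TSS their midpoints lay at 1642, 1273 and −1376 bp, so none of these 3 wide peaks made its gene a bound gene by the midpoint rule.

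Since the list was taken to hold peaks at TSSs only, closeness to a TSS was fixed by that selection, and the side and exact place are the description here. The median position was 144 bp downstream of the nearest TSS (95% interval 110 to 189) with quartiles of −21 and 321.5 bp, and 126 bp (114 to 139) on the other chromosomes. On chromosome 11, 250 midpoints (71.8%) were downstream, 338 (97.1%) within 1 kb and 292 (83.9%) within 500 bp, and 333 peaks (95.7%) contained a TSS. The base at the midpoint was in a coding exon in 109 peaks, an intron in 89, a UTR in 66, a non-coding exon in 36 and between genes in 48. The nearest TSS belonged to a protein-coding gene in 279 peaks, to a pseudogene in 29, to a processed transcript in 24 and to a lincRNA in 10. A total of 267 peaks marked 1 protein-coding gene as bound, 24 marked 2 or more and 57 marked none, and 22 sat between divergent genes.

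Along the chromosome, peaks followed genes but unevenly. In the 25 bins of 5 Mb the number of peaks had a median of 13 and ranged from 1 to 48, and across the 25 bins it rose with the number of protein-coding genes (Spearman's rho 0.756, Pearson's r 0.822, a description over neighbouring bins of 1 library). The list was taken to hold peaks at TSSs only, so such a rise is built into it. Bin 20, from 95 to 100 Mb, had 48 peaks, 13.8% of those on the chromosome, and 42 of its 189 genes were bound (22.2%). It holds most of the type I keratin locus, which gave 24 of its peaks, while the 3 at Krt14, Krt16 and Krt17 lay in bin 21. Outside the locus its highest scores were at Gm11611, Pnmt and Tcap, the last encoding a muscle sarcomere protein with a score of 473. At the other end, bin 23, from 110 to 115 Mb, had 1 peak and none of its 36 genes was bound. That peak, with a score of 157, lay at −1297 bp from the TSS of Ttyh2, a chloride channel gene. The bound share of a bin was not ordered with its median promoter CpG content (Spearman's rho 0.130, n = 25 bins). It tended to be lower in bins with more protein-coding genes (Spearman's rho −0.401).

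**Figure D2:**
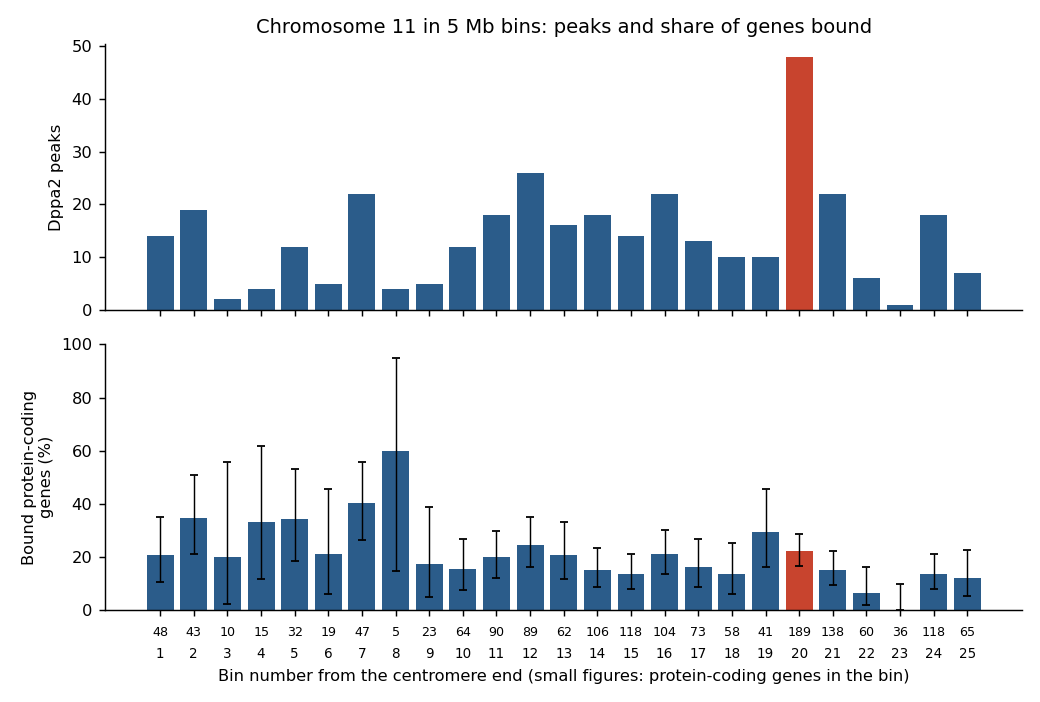
The upper panel gives the number of Dppa2 peaks and the lower panel the share of protein-coding genes bound (percent, whiskers 95% Clopper-Pearson intervals) in the 25 bins of 5 Mb, numbered from the centromere, with the number of genes in each bin in small figures. Bin 20, in red, had 48 peaks but a bound share of 22.2%, and the highest share over more than 10 genes was 40.4% in bin 7.

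Genes in the first 40 Mb were bound more often than the rest, a split made after the bins had been seen. None of the bins there held more than 48 protein-coding genes, and position and gene number were not told apart. Among bins 1 to 8, 69 of 219 genes were bound (31.5%, 95% interval 25.4% to 38.1%), and among bins 9 to 25, 244 of 1434 (17.02%, 15.1% to 19.06%). The same order held at a score of at least 200, with 21.5% against 8.23%. It also held among genes with a CpG observed/expected ratio of at least 0.6 (38.2% against 22.4%) and among those below it (21.6% against 11.8%). Bin 7, from 30 to 35 Mb, had 19 of 47 genes bound (40.4%, 26.4% to 55.7%), and in bin 8 it was 3 of 5, namely Fbll1, Wwc1 and Odz2. The last 4 bins were at the other extreme, with 28 of 279 genes bound (10.0%, 6.77% to 14.2%) beside 285 of 1374 (20.7%, 18.6% to 23.0%) in bins 1 to 21. Their median CpG ratio was 0.655, and among their genes at 0.6 or more 13.1% were bound, against 27.6% of such genes in bins 1 to 21.

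The largest gap between neighbouring peaks was 5.73 Mb, from Gm11670 to Ttyh2, and held the TSSs of 32 protein-coding genes. The next gaps were 3.79 Mb from Cobl to Vstm2a, 3.46 Mb from Odz2 to Mat2b and 2.95 Mb from Ppp3r1 to Actr2, with only 3, 1 and 8 genes between. The median gap was 151 kb, and 26 of 347 were under 10 kb. In gene order the longest stretch without a bound gene ran over 62 genes and 7.71 Mb, from Psmd12 to Nat9. It contained Sox9, a transcription factor gene of cartilage and testis, Axin2, a feedback inhibitor of Wnt signalling, Prkca, Map2k6 and the potassium channel genes Kcnj2 and Kcnj16. These genes were picked out from the stretch after its position had been seen. Another stretch without a bound gene was of 31 genes from Olfr20 to Olfr412, of which 29 were olfactory receptors. A stretch of 25 genes from Tubg2 to Rdm1 held Brca1 and Ezh1. A stretch of 23 genes ended with Hoxb13 to Hoxb1, and none of the 10 Hoxb genes, which pattern the body axis, was bound. The 95% interval of this share reached 30.8% and so includes the 18.9% of all protein-coding genes of the chromosome.

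Bound genes tended to be neighbours, less so without shared peaks and the keratin locus. The 313 bound genes formed 215 runs in the order of their 5′ ends, of which 157 were of 1 gene, 32 of 2, 16 of 3, 6 of 4 and 4 of 5. After a bound gene the next was bound in 98 of 313 cases (31.3%, 95% interval 26.2% to 36.8%), and after an unbound gene in 215 of 1339 (16.1%, 14.1% to 18.1%). In 22 of the 98 pairs both genes were marked by the same peak. Without these pairs the share was 26.1% (21.2% to 31.6%). Without the keratin locus as well it was 22.7% (17.8% to 28.3%) beside 15.98% (14.01% to 18.1%) after unbound genes there, with intervals that overlapped. On the other chromosomes the values without shared peaks were 21.4% (19.8% to 23.0%) and 11.5% (11.1% to 12.0%). Chromosome 11 had 10 runs of 4 or more genes, as many as chromosome 8, while the longest run of the list, on chromosome 12, had 9 genes and the longest on chromosome 11 had 5.

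The longest of these runs in distance spanned 2006 kb and joined Ramp3 (score 108), Adcy1 (201.02), Igfbp1 (445), Igfbp3 (343) and Tns3 (325), each with its own peak. Igfbp1 and Igfbp3 encode binding proteins of insulin-like growth factors, Adcy1 an adenylate cyclase of neurons and Ramp3 a modifier of the calcitonin-receptor family. The run that ended in Gm10462 began with Ubtd2 (717), went on with Efcab9 and Stk10, which shared a peak of 209, and with Fbxw11 (140), an F-box gene of protein degradation. Mapk9, which encodes the kinase JNK2, stood with Rasgef1c, Rnf130 and Tbc1d9b at scores of 135 to 223. Guk1, Mrpl55, 2310033P09Rik and Arf1, the last a regulator of vesicle budding, lay within 36.3 kb at scores of 102 to 216. Close by, Wnt9a (344) and Prss38 (175) were followed by Snap47 and Jmjd4, which shared a peak of 155. Adora2b (540) lay between Specc1 (393) and the pair Zswim7 and Ttc19 with a shared peak of 532. Sgsm2 and Tsr1 shared a peak of 433 and Srr and Smg6 one of 261, so that this run of 4 genes was 2 peaks at bidirectional starts. Both runs of 5 genes in the keratin locus are described with that locus.

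The alpha-globin run was of another kind. Hba-a1, Hbq1b, Hba-a2 and Hbq1a, which encode alpha-like chains of haemoglobin, lay within 16.6 kb, and 4 of the 5 genes of the cluster on the list were bound. The scores were 148 for Hba-a1, 319 for Hbq1b, 118 for Hba-a2 and 399 for Hbq1a. The theta-globin genes had the higher values of each neighbouring pair. Each of the 4 peaks covered its whole gene, and each midpoint was in a coding exon, 257 to 455 bp downstream of the TSS. The peaks at Hba-a1 and Hba-a2 were both 1509 bp wide and repeated over 88.9% and 90.2% of their 36-mers. Those at Hbq1b and Hbq1a were repeated over 30.5% and 30.2%, as the printed copies before their TSSs show. The 2 copies of each gene can therefore share reads, whose part in the scores was not tested, and the 4 peaks were not taken as independent. At a score of at least 200 only the 2 Hbq1 genes were bound.

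The type I keratin locus held many peaks in a short distance. It was bounded after the values had been seen, from the first to the last gene named Krt or Krtap in the array, whose TSSs lie at chr11:99105399-100131185. Type I keratins are the acidic partners in the keratin filaments of epithelia and hair, and keratin-associated proteins are the cysteine-rich matrix of the hair shaft. The locus spanned 1026 kb and had 27 peaks, or 26.3 per Mb, beside 2.86 per Mb over the chromosome. Of its 83 protein-coding genes, 27 were bound (32.5%, 95% interval 22.6% to 43.7%). Of the genes of chromosome 11 outside it, 286 of 1570 were bound (18.2%, 16.3% to 20.2%), and at a score of at least 200 the share there was 8.92% (7.55% to 10.4%), which overlapped the interval of the other chromosomes. A count of peaks in the locus includes copies of one another: 16 of the 27 shared at least 100 36-mers with another peak of the chromosome, against 8 peaks outside it.

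Among the type I keratin genes 11 of 27 were bound (40.7%, 22.4% to 61.2%), beside 18.9% of all protein-coding genes of the chromosome. The interval counts genes that share sequence as separate. Krt33a, Krt33b, Krt34 and Krt31, all hair keratins, had scores of 844, 903, 629 and 429, and together with Krtap17-1 (512) formed a run of 5 within 56.6 kb. Their 4 peaks shared 36-mers with each other, with 35.1%, 29.2%, 33.6% and 30.9% of each repeated. The hair keratin genes Krt32, Krt35, Krt36, Krt39 and Krt40 were not bound. Krt27 (310) and Krt28 (379) encode keratins of the inner root sheath, as do Krt25 and Krt26, which were not bound, and Krt12 (414) encodes the keratin of the corneal epithelium. The peaks at Krt28 and Krt12 had no repeated 36-mer. Of the keratins of stratified epithelia, Krt14 (439), Krt13 (254), Krt17 (213) and Krt16 (173) were bound, whereas Krt9, Krt10 and Krt15 were not. The other unbound type I keratin genes were Krt19, Krt20, Krt23, Krt24, Krt42 and Krt222. The bound and unbound genes thus lay interleaved in the array.

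Among the keratin-associated protein genes 8 of 22 were bound (36.4%, 95% interval 17.2% to 59.3%, which includes the 18.9% of all genes of the chromosome). They were Krtap4-16 (1311), Krtap4-13 (937), Krtap17-1 (512), Krtap4-7 (386), Krtap2-4 (362), Krtap4-8 (276), Krtap4-9 (254) and Krtap4-1 (251). A further 8 bound genes of the locus had Gm names. Gm11938, Gm11937, Krtap2-4, Gm11562 and Krtap4-1 made a run of 5 within 24.9 kb at scores of 251 to 393, and 4 of these 5 peaks shared 36-mers. Gm11569, Gm11554 and Krtap4-13 were near-copies, repeated over 94.3%, 93.1% and 86.7%, so their scores of 981, 1105 and 937 cannot be assigned to the individual gene. Krtap4-16 was repeated over 22.6% and its peak matched itself at 58.3% of bases when shifted by 57 bases. No gene was bound among 17 predicted genes of 78 to 168 bp with names from Gm14177 to Gm14196 in the middle of the array. Without them the bound share of the locus was 40.9% (27 of 66). They were set apart with their binding known, and leaving out a set with no bound gene can only raise the share. On chromosome 15, which holds the type II keratins, 9 of 23 Krt genes were bound (39.1%, 19.7% to 61.5%), beside 17.7% of all genes there. Krt2 had the highest score of the 9 (868). None of the 24 Krtap genes on other chromosomes was bound (95% interval up to 14.2%), beside 13.8% of all genes outside chromosome 11.

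**Figure D3:**
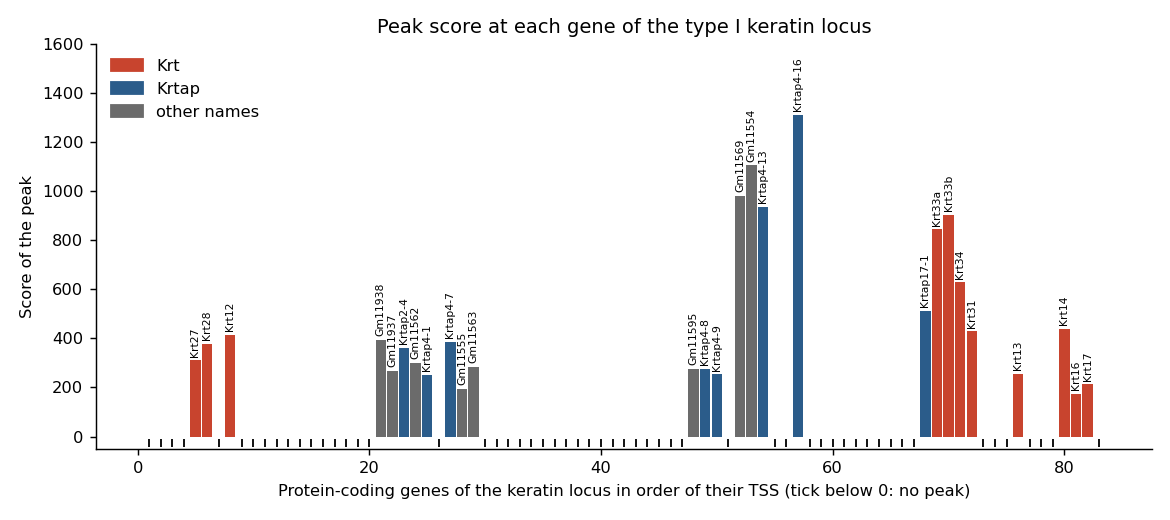
Bars give the score of the peak at each bound gene (y axis) for the 83 protein-coding genes of the keratin locus in order of their TSS (x axis), with Krt genes in red, Krtap genes in blue and others in grey, and ticks below 0 mark genes without a peak. The 27 bound genes stood in groups, with the highest scores at Krtap4-16 (1311) and in the near-copies Gm11569, Gm11554 and Krtap4-13.

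The keratin peaks differed from the other 321 peaks of the chromosome in shape and place. Their median score was 386 (95% interval 276 to 512) and that of the others 206 (191 to 225). They were narrower, with a median width of 898 bp (841 to 1004) against 1524 bp (1470 to 1598). Their midpoints lay further into the gene, at a median of 280 bp (163 to 326) against 123 bp (83 to 169), and 25 of 27 (92.6%) were in a coding exon, against 84 of 321 (26.2%). Coding sequence made up a median of 52.3% of a keratin peak and 7.60% of the others. Among the 13 bound genes of the locus with 1 exon, the peak covered a median of 84.9% of the gene (75.05% to 100%). The median share of repeated 36-mers was 30.9% in the locus and 0 outside it. These measures come from the same peak calls, and the intervals treat copies as separate peaks.

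**Figure D4:**
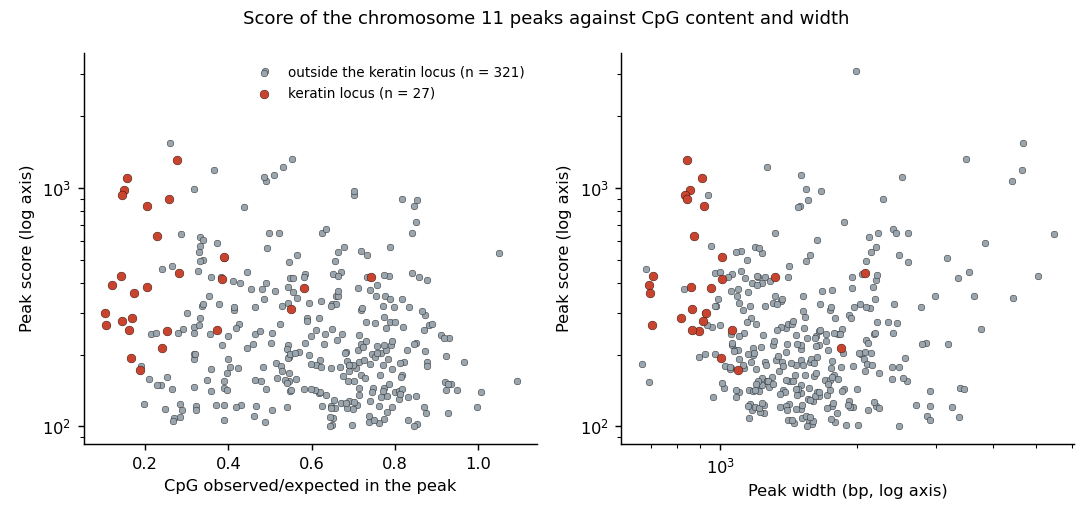
Each point is a peak of chromosome 11, with its score (y axis, log scale) against the CpG observed/expected ratio of its sequence (left) and its width in bp (right, log scale). The 27 keratin locus peaks, in red, lay at low CpG ratio (median 0.204 against 0.645) and narrow width (median 898 bp against 1524 bp).

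Dppa2-bound genes of the chromosome had more CpG-rich promoters than unbound genes, although the difference was smaller than elsewhere. The CpG observed/expected ratio, over 1000 bp at the TSS used by most transcripts, had a median of 0.740 (95% interval 0.706 to 0.768) in the 313 bound genes and 0.568 (0.527 to 0.599) in the 1340 unbound ones. A gene could be bound at another of its TSSs, as Odz2 was, and its ratio then does not describe the bound start. With 1 TSS per gene the bound share of the chromosome was 18.3% instead of 18.9%. On the other chromosomes the medians were 0.780 (0.772 to 0.787) and 0.462 (0.450 to 0.471). GC content had medians of 61.4% and 54.8% on chromosome 11 and of 63.4% and 53.2% elsewhere. Among genes with a ratio of at least 0.6, 24.8% (21.9% to 27.9%) were bound on chromosome 11 and 23.8% (22.9% to 24.7%) on the others. Below 0.6 the shares were 12.8% (10.6% to 15.3%) and 5.64% (5.22% to 6.07%). Without the keratin locus the first of these was 10.6% (8.44% to 13.0%), and with olfactory and vomeronasal receptor genes also left out on all chromosomes the shares were 11.0% (8.67% to 13.6%) and 6.34% (5.87% to 6.83%). The higher bound share of chromosome 11 thus lay mostly among genes with a ratio under 0.6, within and outside the locus. Outside it, 21.7% (16.3% to 28.0%) of genes from 0.4 to 0.6 were bound, against 12.4% (11.3% to 13.7%) on the other chromosomes. At 0.8 or more the shares were 34.7% (29.7% to 40.0%) and 31.0% (29.6% to 32.4%), with overlapping intervals.

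**Figure D5:**
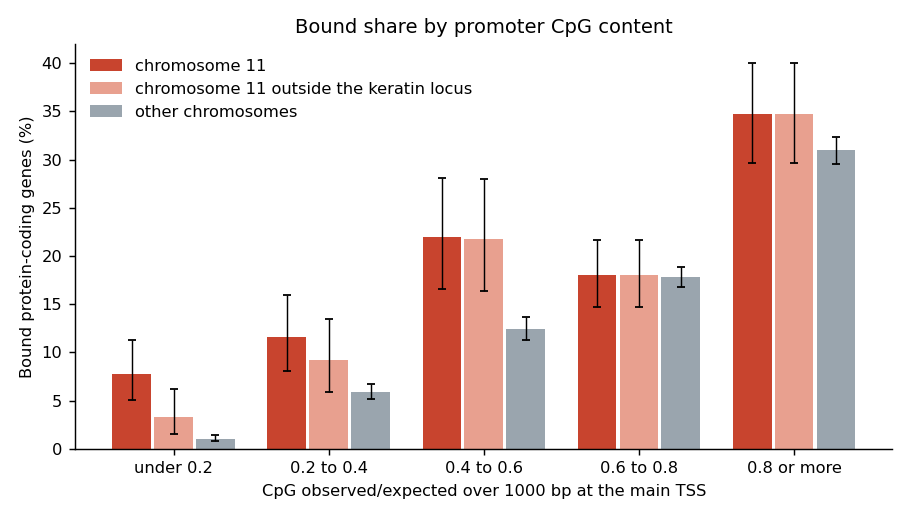
Bars give the share of protein-coding genes bound (y axis, percent, whiskers 95% Clopper-Pearson intervals) in 5 classes of promoter CpG observed/expected ratio (x axis) on chromosome 11, on chromosome 11 outside the keratin locus and on the other chromosomes. Below 0.2 the shares were 7.79%, 3.33% and 1.04%, and from 0.6 to 0.8 they were 18.0%, 18.0% and 17.8%.

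Of 57 bound genes with a ratio under 0.4, 25 were in the keratin locus. The other 32 included Osm, which encodes the cytokine oncostatin M (score 625), Olfr1395 (542) and Chrne, a subunit of the muscle acetylcholine receptor (508). The nearest TSS to the peak that marked Chrne was that of 4930544D05Rik. Tcap (473) and Pgam2, the muscle form of a glycolytic enzyme (450), were also among the 32. These genes were taken as the highest-scoring ones after their values had been seen. Their 32 peaks had a median score of 204, and 17 midpoints (53.1%) were in a coding exon. For the 110 peaks at bound genes with a ratio of at least 0.8 the median score was 202 and 24.5% of midpoints were in a coding exon. Midpoints lay at a median of 250.5 bp in the first set and 90 bp in the second.

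In the promoter window of 250 bp before to 50 bp after the TSS, counted on both strands, the GC box GGGCGG was present in 63.3% of bound, 42.2% of unbound and 46.2% of all protein-coding genes of the chromosome. The CCAAT box CCAAT was in 31.9%, 39.1% and 37.7%, the E-box CACGTG in 9.27%, 10.0% and 9.86%, and the E2F motif TTCCCGC, which can overlap a GC box, in 6.39%, 5.97% and 6.05%. TATAAA was in 12.5% of bound, 13.9% of unbound and 13.6% of all genes. In the keratin locus it was in 26 of 27 bound genes and also in 47 of 56 unbound ones (83.9%), while of the bound genes outside the locus 4.55% held it. The locus thus held 26 of the 39 bound genes with TATAAA but 47 of the 186 unbound ones. The near-equal shares over the whole chromosome therefore do not describe the genes outside the locus. A match is a description of these letters in the window and not a binding site.

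Some other gene families of the chromosome, in arrays or scattered along it, had few or no bound genes. Of 79 olfactory receptor genes, which encode the odorant receptors of the nose, 6 were bound (7.59%, 95% interval 2.84% to 15.8%), beside 5 of 1008 (0.496%) on other chromosomes. The median CpG ratio of the 79 was 0.147, and the bound ones had ratios from 0.193 (Olfr179) to 0.361 (Olfr222). Of all genes of the chromosome with a ratio under 0.2 a share of 7.79% was bound, which includes the keratin locus. Outside that locus the share was 3.33% (1.54% to 6.23%), and on the other chromosomes it was 1.04%. The chromosome 11 shares include receptor genes themselves. The 6 bound receptor genes were Olfr1395 (542), Olfr179 (424), Olfr314 (408), Olfr317 (286), Olfr315 (176) and Olfr222 (141). All but Olfr1395 lay within bin 12, and Olfr179 and Olfr317 shared repeated sequence (26.6% and 31.7% of 36-mers). As in the single-exon keratin-associated genes, the 6 peaks lay on the coding exon, with midpoints 466 to 707 bp downstream of the TSS, and covered 90.8% to 100% of the gene. None of the 11 Ccl chemokine genes, the 7 myosin heavy chain genes or the 7 ribosomal protein genes was bound, with upper limits of 28.5%, 41.0% and 41.0%. Each of these intervals includes the 18.9% of all protein-coding genes of the chromosome. On other chromosomes 2 of 13 Ccl, 0 of 6 myosin heavy chain and 6 of 69 ribosomal protein genes were bound.

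The functional gene lists were put together with bound genes of the chromosome already known, so their counts are not independent evidence of an excess. Among genes of meiosis and spermatogenesis 9 of 18 were bound (50.0%, 95% interval 26.0% to 74.0%), beside 18.9% of all protein-coding genes of the chromosome and 14.2% over all chromosomes. Hsf5 (968) and Spata22 (834) had by far the highest scores. Kif2b (211), a kinesin of the spindle, Sox30 (204), a transcription factor of spermatids, and Pttg1 (185), the securin that guards sister chromatids, followed. Ybx2 (165), an RNA-binding protein of germ cells, Spata20 (123) and Zpbp2 (120), a protein of the acrosome, were lower. Tex19.1 and Tex19.2, both expressed in ESCs and germ cells, were in a stretch of 24 genes from Dus1l to Metrnl without a bound gene. At a score of at least 200 the count was 4, beside 9.98% of the genes of the chromosome and 8.06% over all chromosomes.

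Among genes of MAP kinase and receptor tyrosine kinase signalling 7 of 14 were bound (50.0%, 23.0% to 77.0%), beside 18.9% of all genes of the chromosome. They ranged from Map2k4 (341), Rps6kb1 (321) and Map3k3 (316) to the receptor gene Egfr (205), the scaffold Ksr1 (184), Map2k3 (143) and Mapk9 (135). Wnt, FGF and T-box genes had 4 of 9 bound (44.4%, 13.7% to 78.8%, an interval that includes 18.9%): Wnt9a (344), Fgf18 (274), Tbx21 (181), the regulator of type 1 helper T cells, and Tbx4 (156), a gene of the hindlimb. Cytokine genes and regulators had 2 of 10 bound (2.52% to 55.6%, an interval that includes 18.9%): Osm (625) and Irf1 (178). Ion channels and neurotransmitter receptors had 6 of 23 bound (26.1%, 10.2% to 48.4%), with Adora2b (540) far above Grm6 (182), P2rx5 (157), the serotonin transporter gene Slc6a4 (141), Grin2c (119) and Accn1 (111). Chromatin regulators had 6 of 19 (31.6%, 12.6% to 56.6%), and the intervals of these last 2 lists also include 18.9%. The bound ones were Sap30l of the Sin3 complex (272), the acetyltransferase-complex genes Tada2a (161) and Kat2a (120), Jmjd4 (155), Msl1 (123) and Smarce1 (100). Most of these promoters were among the lower-scoring peaks of the chromosome, whose median was 220.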

How the data were processed

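Peaks were taken from the deposited list of the V5-Dppa2 ChIP (mm9, 1 library), whose score column was made by the authors from the −log10 of each peak's MACS p-value, multiplied by 10. Before depositing it the authors removed low-complexity reads, mapped with Bowtie 0.12.7, allowing 2 mismatches in a seed of 36 bases, removed duplicates, called peaks against the parental control with MACS 1.4.2 at a shift of 75 bp, and kept p-values of at most 1e-10 and at least 100 reads. The submitters' processing notes also name Picard 1.81. The list was taken to hold peaks at TSSs only, and it gives no read depth.

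TSSs, exons and gene types came from GENCODE M1, and the midpoint stood in for the summit. Shares have 95% Clopper-Pearson intervals and medians have order-statistic intervals. Sequence was counted as repeated where a 36-mer had another copy anywhere in mm9, on either strand. Promoter composition used 1000 bp at the TSS of most transcripts. Members and gene lists were chosen with earlier results of these data known. Genes named are those at the 12 highest-scoring, 3 lowest-scoring and 3 widest peaks, in runs of 4 or more bound genes, in the fullest and emptiest bins and bound members of 14 lists. Others are stated as picked after their values were seen, and a few genes are not reported here. Distances, gene calls and 36-mer counts were tested on simulated data. Python 3.11.15, numba 0.67.0, pandas 2.3.3, networkx 3.6.1, numpy 2.4.6, pysam 0.24.0, matplotlib 3.10.9 and scipy 1.17.1 were used.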

Additional observations from a re-analysis of the deposited data

How the results depend on the processing

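Over 63 alternatives 40 left the value within its counting interval or 1.5 times its count, and 23 moved it. With peaks of a score of at least 200 the chromosome had 196 peaks, 9.98% of genes bound, a next gene bound in 20.6% of cases, a median CpG ratio of 0.698 at bound genes and a median midpoint at 203 bp, and the lists held 2 alpha globins, 2 Wnt, FGF and T-box genes, 1 cytokine, 4 meiosis genes, 4 MAP kinase genes, 1 channel or receptor and 1 chromatin regulator. The bound share was 16.03% with a window of 500 bp and 21.4% with 5 kb, beside 12.3% and 15.0% elsewhere. The fullest bin held 10.1% of peaks with bins of 2.5 Mb, and the next gene was bound in 26.1% of cases with shared peaks counted once. The median CpG ratio was 0.782 over 500 bp and 0.612 over 2000 bp. With motifs sought from 500 bp before to 500 bp after the TSS, 18.8% of bound genes held the E-box, 18.8% the E2F motif, 85.6% the GC box, 57.2% the CCAAT box and 22.4% TATAAA. Without the keratin locus, chosen after seeing the data, the bound share was 18.2%, the median CpG ratio 0.760 and the median score 206. No paired analysis was possible because the list comes from 1 library, so no replicate could be left out either.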
